A study of Mus musculus with 6 samples.

Results

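The collagen genes of the mouse were examined as a family. Members were all genes of the deposited table whose symbol is Col, a number, the letter a and a number, and 44 of 41819 genes fitted this rule, which uses names and no measured value. The cells were one clone of 3T3, an established line of mouse fibroblasts that the labels call malignant, and every dish carried a lentiviral cassette in which a doxycycline-inducible TetOne promoter drives human poly(ADP-ribose) glycohydrolase (hPARG) together with the fluorescent protein mClover3, with a puromycin resistance gene for selection. Poly(A) RNA of 3 dishes left without doxycycline for 72 h (control) was compared with that of 3 dishes given 500 ng/ml doxycycline for 72 h (hPARG), and the comparison asks which transcripts differ when hPARG is produced. No library of cells without the cassette was among the samples, so doxycycline, mClover3 and hPARG cannot be told apart as sources of a difference. All dishes came from 1 clone, and p-values measure only the spread between these dishes.

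Collagens are the main structural proteins of the extracellular matrix, and each molecule is a triple helix of 3 alpha chains that may come from one gene or from several. The helix needs a glycine to open each triplet of residues, a pattern written Gly-X-Y. Fibrillar collagens (types I, II, III, V, XI, XXIV and XXVII) build the fibrils of skin, bone and tendon, type IV collagens form the sheet of basement membranes, FACIT collagens sit on the surface of fibrils, type VI forms beaded filaments, and others form short-chain networks or span the cell membrane. Fibroblasts are the main source of types I, III, V and VI in connective tissue. Hydroxylation of prolines and lysines, folding with chaperones, export, removal of propeptides and crosslinking follow before a fibril is formed.

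Fibrillar genes can be told from type IV genes by their coding exons. Of these exons 5 are printed here, chosen to show the repeat that separates these classes. In the annotated transcript with the longest coding sequence, the longest uninterrupted run of codon triplets that open with GGN (glycine) spanned 216 to 344 repeats in the 11 fibrillar genes, 39 to 66 in the 6 type IV genes, 32 to 113 in the 9 FACIT genes and 37 to 87 in the 6 type VI genes. Fibrillar genes held 21 to 33 inner coding exons of exactly 54 bases, which is 6 repeats, whereas type IV genes held 1 to 3. FACIT genes held 4 to 28 and type VI genes 2 to 3. Type IV, FACIT and type VI genes thus overlap in their runs, and FACIT genes reach into the fibrillar range of 54-base exons. The lines give single coding exons 5′ to 3′ on the coding strand of GRCm38, with every GGN codon in capitals. They are Col1a2 at chr6:4515481-4515534 (plus strand), Col3a1 at chr1:45325360-45325413 (plus), Col5a1 at chr2:27965251-27965304 (plus), Col4a5 at chrX:141578672-141578752 (plus) and Col4a1 at chr8:11267597-11267656 (minus).
Col1a2: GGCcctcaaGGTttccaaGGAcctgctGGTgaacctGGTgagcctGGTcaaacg
Col3a1: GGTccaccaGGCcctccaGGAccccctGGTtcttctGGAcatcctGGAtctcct
Col5a1: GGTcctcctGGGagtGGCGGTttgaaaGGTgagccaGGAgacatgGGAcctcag
Col4a5: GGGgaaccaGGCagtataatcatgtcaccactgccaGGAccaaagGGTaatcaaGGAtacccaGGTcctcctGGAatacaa
Col4a1: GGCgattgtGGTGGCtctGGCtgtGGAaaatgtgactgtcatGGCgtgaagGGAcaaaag
The 3 fibrillar exons are 54 bases long and carry GGN in step throughout, with 1 additional GGN codon in Col5a1. In the exons of Col4a5 (81 bases) and Col4a1 (60 bases) the step is broken. This contrast was fixed by the choice of exons. The fibrillar ones were taken from 54-base exons within the longest run, and the type IV ones for holding a break. Unbroken runs of 10 or more repeats held 71.1% of the codons of Col4a5 and 74.4% of those of Col4a1.

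The dishes held 21619908 to 25263818 gene counts. Values are given as CPM, counts scaled to a common library total after TMM normalization, which scales each dish by a trimmed mean of its ratios to the others. A floor of 3 counts corresponds to 0.117 to 0.141 CPM and covers counting error only. The fibroblast label was checked against 8 markers, all of which passed the filter on low counts, with Vim (vimentin) at 3630 CPM in the control and 3840 CPM in hPARG dishes. Their summed level ranged from 5580 to 5880 CPM in the control and from 6180 to 6480 CPM in hPARG dishes. Of the markers of other cell types, the epithelial list summed to 0.195 to 0.707 CPM in the control and 0.276 to 0.577 in hPARG dishes, the endothelial list to 0.895 to 1.37 and 0.742 to 0.871, the blood and macrophage list to 0.344 to 0.78 and 0.275 to 0.495, and the muscle list to 4.0 to 4.9 and 4.91 to 6.24, nearly all of it Des. The macrophage gene Adgre1, the muscle gene Myod1, the cartilage gene Acan and the fat cell genes Plin1 and Lep had 0 counts in every dish.

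Both dishes numbered 2 stood apart from the other 4. A principal component analysis of log2 CPM put control dish 2 at 20.72 and hPARG dish 2 at 23.82 on its leading axis (50.8% of the variance), with the others between -20.46 and -5.32. The deviation of these dishes from their group mean rose with exon length across the 11509 tested genes, with a Spearman's rho of 0.54 in control dish 2 and 0.533 in hPARG dish 2. Collagen transcripts are long, with a median exon length of 7.9 kb for the tested members against 4.55 kb for all tested genes, and they followed the same pattern. Of the 24 tested collagen genes, 18 lay above their group mean in control dish 2 and 20 in hPARG dish 2, with a median log2 deviation of 0.13 and 0.18. Each group holds one such dish. Comparisons are therefore given without a term, with a term in the model that parts the dishes numbered 2 from the rest, with both dishes numbered 2 left out, and, where it changes the call, with the replicate number as a block.

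**Figure D1:**
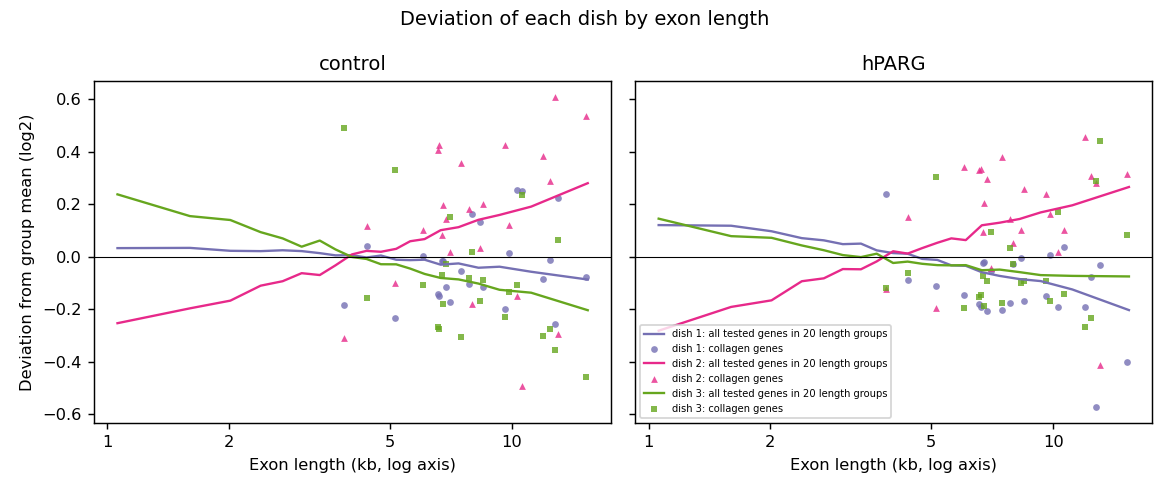
Log2 deviation of each dish from the mean of its group (vertical axis) against exon length in kb (horizontal log axis), for control dishes on the left and hPARG dishes on the right. Lines join the medians of all tested genes in 20 groups by exon length, and points are the 24 tested collagen genes. The line of dish 2 climbs with length in both groups, and most collagen points of dish 2 lie above 0.

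Collagen genes held 0.39%, 0.496% and 0.333% of all counts in control dishes 1 to 3, a mean of 0.406% ± 0.0826 (SD, n = 3). In hPARG dishes 1 to 3 they held 0.435%, 0.579% and 0.409%, a mean of 0.474% ± 0.0914 (SD, n = 3). The groups overlap, since control dish 2 exceeded hPARG dishes 1 and 3. Without the dishes numbered 2 the means were 0.362% and 0.422%, so the difference was 0.0604 percentage points against 0.0679 with all dishes. With single dishes left out it was 0.0157 without hPARG dish 2, 0.0313 without control dish 3 and 0.113 without control dish 2. Fibrillar genes made up 65.0% to 69.4% of the collagen counts of a dish and type IV genes 19.3% to 20.5%. The RNA was taken from whole cultures, in which fewer cells of a type and less RNA per cell cannot be told apart.

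Levels were compared between genes only per length, as CPM per kb of annotated exon. Of the 44 members, 24 passed the filter on low counts: 8 of 11 fibrillar genes, 5 of 6 type IV genes, 2 of 3 genes of the basement membrane zone (Col7a1 of anchoring fibrils, Col15a1 and Col18a1), 4 of 9 FACIT genes, 3 of 6 type VI genes, 1 of 3 short-chain genes, 1 of 4 transmembrane genes and 0 of 2 others. The highest level belonged to Col1a2, the alpha 2 chain of type I collagen (chromosome 6, 4504814 to 4541544), with a mean of 169 CPM per kb over 6 dishes. Col4a5 followed at 62.6 and Col1a1, the alpha 1 chain of type I, at 52.9. Dish values ranged from 53.4 to 73.8 CPM per kb for Col4a5 and from 34.5 to 78.7 for Col1a1, so the order of these genes lies within the spread. Next came Col4a1 at 33.7, Col5a2 at 33.4 and Col4a2 at 29.8, whose dish values ranged from 25.4 to 45.3, 21.3 to 48.4 and 22.2 to 40.0 CPM per kb, so their order lies within the spread. Col8a1 (24.7), Col16a1 (24.6), Col6a1 (22.2), Col5a1 (15.5), Col6a2 (9.52) and Col3a1 (6.69) completed the 12 genes above 1 CPM per kb in every dish. The remaining tested members lay at or below 0.818 CPM per kb. With the gene lengths that the deposited RPKM values imply in place of annotated exons, Col1a2 stood at 379 and Col3a1 at 11.8 CPM per kb, and 5 tested members moved by more than 1.5-fold.

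**Figure D2:**
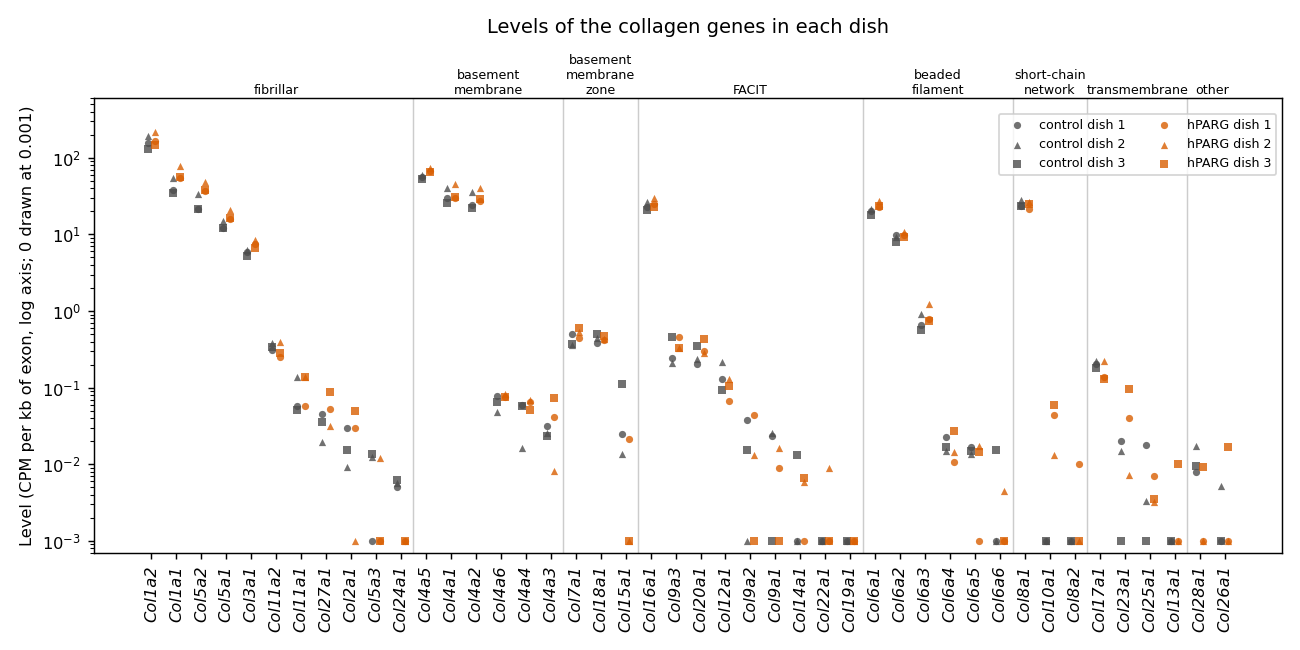
Level of each of the 44 collagen genes in CPM per kb of exon (vertical log axis, values of 0 drawn at 0.001) in each dish, by class from left to right. Grey marks are control and orange marks hPARG dishes, with a circle, triangle and square for dishes 1, 2 and 3. A set of 12 genes forms an upper band led by Col1a2 at a mean of 169, and most other genes lie below 1.

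Of the 20 members under the filter, none exceeded 16 counts in any dish, and 12 had 3 counts or fewer in every dish. Col19a1 had 0 counts in all dishes. Cartilage collagens were among the low ones: Col2a1 had 7, 2 and 3 counts in control and 6, 0 and 10 in hPARG dishes, and Col9a1 and Col9a2 never exceeded 3. Col10a1, the collagen of hypertrophic cartilage, had 0 counts in the control dishes and 3, 1 and 4 in the hPARG dishes, which lies too near the floor to give a fold change. Sox9, a transcription factor of cartilage that acts on Col2a1, was measured at 42.7 ± 3.28 CPM in the control and 34.4 ± 1.25 CPM in hPARG dishes (SD, n = 3), and its log2 fold change was -0.31 with FDR = 0.965 by edgeR without a term and 0.0655 with it. In the cartilage and bone list, which summed to 40.6 to 46.5 CPM in the control and 33.3 to 35.7 in hPARG dishes, nearly all counts were of Sox9.

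Without a term, 0 of the 24 tested collagen genes passed an FDR (Benjamini-Hochberg over 11509 genes, edgeR's quasi-likelihood test) of 0.05, where 0.0869% of all tested genes did and 0.00869% did with a higher value. DESeq2 also called 0. At an unadjusted p under 0.05 there were 6 collagen genes with either tool, all higher in hPARG dishes and none lower. Among all tested genes, 1.42% were higher and 2.54% lower at that p by edgeR's test, and the shares by DESeq2 were not computed. By edgeR's test the count of 6 fell to 2 without control dish 3 and to 3 without control dish 1 or without hPARG dish 2. The shares of all tested genes in those fits were not computed either. The 6 were Col5a2, Col3a1, Col5a1, Col4a5, Col1a1 and Col6a1, and in these same 6 genes every hPARG dish lay above every control dish, which was so for 3.61% of all tested genes. No tested collagen gene had all hPARG dishes below all control dishes, against 6.0% of all tested genes.

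With the term for the dishes numbered 2, 5 collagen genes had an FDR under 0.05, all of them higher in hPARG dishes: Col5a2, Col1a1, Col5a1, Col3a1 and Col4a5. Of all tested genes 1.53% passed in either direction and 0.547% were higher. The fitted log2 fold changes of these 5 moved by less than their standard errors, and the standard errors fell. The split of the dishes numbered 2 from the rest was read from these same counts, and no label sets these dishes apart. An FDR with the term, or without these dishes, therefore holds only given that split. With the replicate number as a block 6 passed, Col6a1 being the additional one, where 2.87% of all tested genes passed and 1.31% were higher. With the block and a correction for exon length and GC content together 6 passed as well, where 2.84% of all tested genes passed and 1.15% were higher. With that correction alone 0 passed, and edgeR's FDR for Col5a2 was 0.103. With both dishes numbered 2 left out, Col5a2 and Col1a1 passed, where 0.345% of all tested genes passed and 0.104% were higher. None of the differences reached 2-fold, and 0.191% of all tested genes passed both thresholds with the term. At an unadjusted p under 0.05, all higher, there were 8 collagen genes with the term (7.22% of all tested genes were higher and 7.72% lower), 11 with the block (8.98% and 8.92%) and 7 without the dishes numbered 2 (3.48% and 3.3%). In either direction the shares of all tested genes were 14.9%, 17.9% and 6.78%. Of the 24 tested genes, 20 had a fitted difference above 0, and the median log2 fold change was 0.30 in either model, beside 0.004 over all tested genes and 0.016 over the 2068 tested genes whose exon length lay within the interquartile range of the members. In all 3 same-numbered pairs of dishes, 13 collagen genes were higher in the hPARG dish, and 19.7% of all tested genes were.

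**Figure D3:**
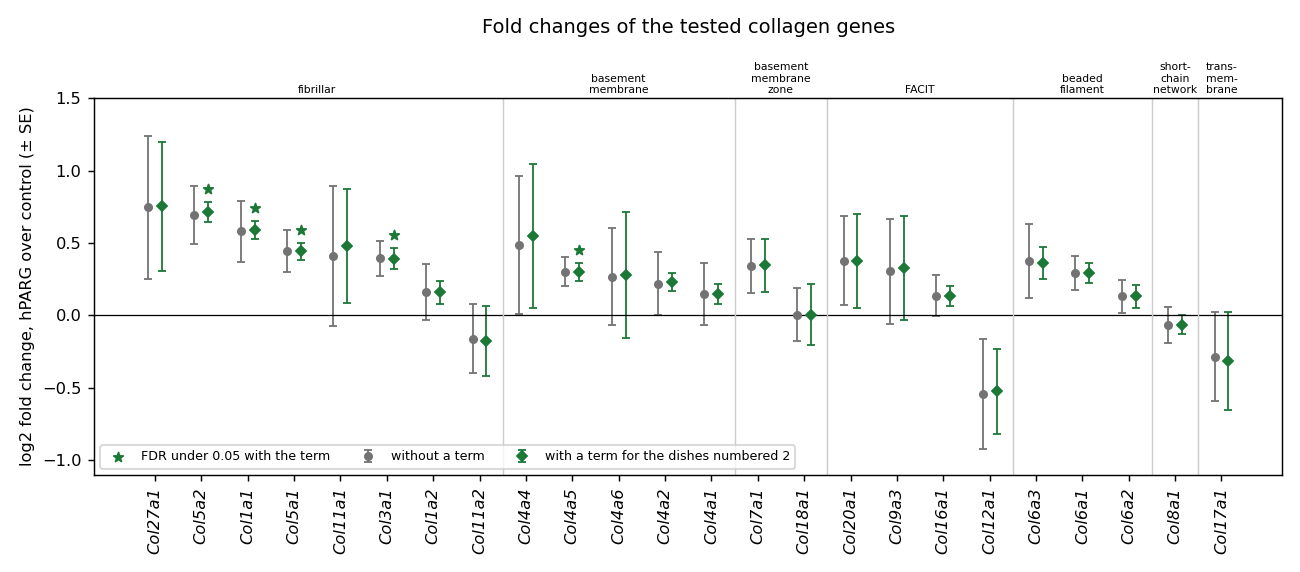
Log2 fold change of hPARG over control for the 24 tested collagen genes by class, with bars of 1 standard error. Grey circles are from the model without a term, green diamonds from the model with a term for the dishes numbered 2, and stars mark an FDR under 0.05 in the latter. Stars mark 4 fibrillar genes and Col4a5, and their bars are shorter in green than in grey.

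Fibrillar genes accounted for 4 of the 5. Their median log2 fold change over 8 tested members was 0.43 without a term and 0.46 with it. Col5a2, the alpha 2 chain of type V collagen (chromosome 1, 45374321 to 45503282, minus strand), which nucleates type I fibrils, had 208, 322 and 204 CPM in control dishes 1 to 3 and 354, 464 and 369 CPM in hPARG dishes 1 to 3. The lowest hPARG dish exceeded the highest control dish, which was control dish 2. The log2 fold change was 0.69 ± 0.200 (SE) without a term, with FDR = 0.829 by edgeR. With the term it was 0.71 ± 0.0704 and FDR = 0.000173, with the block FDR = 7.78e-05, and without the dishes numbered 2 it was 0.81 with FDR = 0.00071, a fold of 1.76.

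Col1a1 (chromosome 11, 94936224 to 94953042, plus strand) had 247, 362 and 226 CPM in the control and 363, 516 and 370 CPM in hPARG dishes. Here the gap between the groups was narrow, because control dish 2 and hPARG dish 1 were nearly equal. Its log2 fold change was 0.58 ± 0.213 (SE) with FDR = 0.999 by edgeR without a term. With the term the value was 0.59 ± 0.0645 and FDR = 0.000412, with the block FDR = 0.000135, and without the dishes numbered 2 it was 0.63 with FDR = 0.00674.

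Col5a1, the alpha 1 chain of type V (chromosome 2, 27886425 to 28039514, plus strand), had 102, 127 and 104 CPM in the control and 134, 180 and 141 CPM in hPARG dishes. Col3a1, the chain of type III collagen of elastic tissues (chromosome 1, 45311538 to 45349706, plus strand), had 57.2, 61.6 and 51.5 CPM in the control and 74.6, 83.2 and 66.1 CPM in hPARG dishes. In both genes the groups did not overlap and dish 2 was the highest of its group. For Col5a1 the log2 fold change was 0.45 ± 0.147 (SE) without a term (edgeR FDR = 0.976) and 0.44 ± 0.0583 with it (FDR = 0.00179). For Col3a1 these values were 0.39 ± 0.122 (FDR = 0.946) and 0.39 ± 0.0720 (FDR = 0.0201). The block gave FDR = 0.000923 and 0.00475, and neither gene passed without the dishes numbered 2, where edgeR's FDR was 0.0816 for Col5a1 and 0.272 for Col3a1.

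Col1a2, the gene with the most counts of the family, had 1930, 2380 and 1610 CPM in the control and 2070, 2710 and 1860 CPM in hPARG dishes. Each hPARG dish lay above the control dish of its number, yet the groups overlapped widely. The log2 fold change was 0.16 ± 0.193 (SE; edgeR FDR = 0.999) without a term and 0.16 ± 0.0813 (FDR = 0.382) with it. Without hPARG dish 2 it was -0.0101. The ratio of Col1a2 to Col1a1 per kb of exon was 4.13, 3.48 and 3.77 in control and 3.02, 2.77 and 2.65 in hPARG dishes, a mean of 3.79 ± 0.326 against 2.81 ± 0.186 (SD, n = 3). All hPARG dishes lay below all control dishes, and dish 2 did not stand apart in this ratio. An exact permutation test over dishes gave p = 0.1 (two-sided), the smallest that 3 against 3 dishes allow, and 0.3 after adjustment over the 6 ratios compared. With the lengths implied by RPKM the means were 7.7 and 5.71.

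Of the other 3 tested fibrillar genes, all at low levels, Col27a1 had 0.438 ± 0.166 CPM in the control and 0.749 ± 0.371 in hPARG dishes, Col11a1 1.06 ± 0.615 and 1.40 ± 0.579, and Col11a2 2.37 ± 0.266 and 2.12 ± 0.496 (SD, n = 3). None had a p under 0.05 with or without the term, and their standard errors were 0.238 to 0.492 on the log2 scale.

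**Figure D4:**
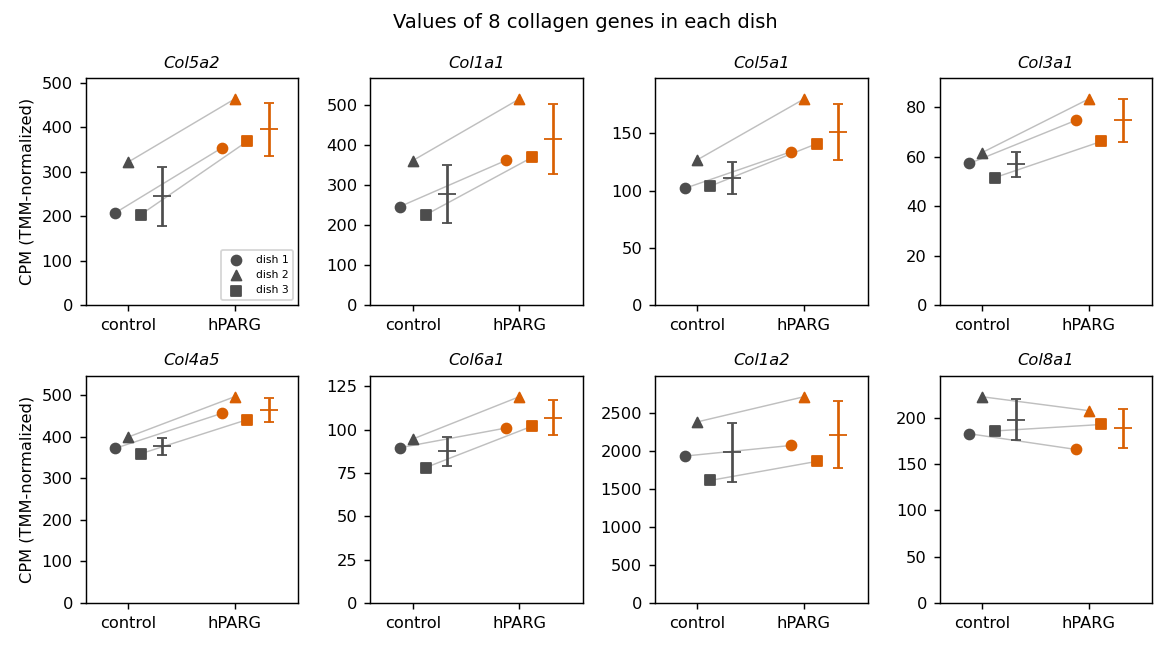
CPM of 8 collagen genes in each dish, each panel on its own linear axis starting at 0. Grey is control and orange hPARG, thin lines join dishes of the same number, and the bars beside the points give the mean and SD of 3 dishes. The groups do not overlap in Col5a2, Col1a1, Col5a1, Col3a1, Col4a5 and Col6a1, and they overlap in Col1a2 and Col8a1.

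The 5 tested type IV genes had a median log2 fold change of 0.27, or 0.28 with the term. Col4a5, the alpha 5 chain (chromosome X, 141475385 to 141689234, plus strand), had 372, 399 and 359 CPM in the control and 456, 496 and 441 CPM in hPARG dishes. These groups were separated with little spread within each. The log2 fold change was 0.30 ± 0.101 (SE) without a term, with edgeR FDR = 0.995, and 0.30 ± 0.0608 with it, with FDR = 0.0314. The block gave FDR = 0.00836, and without the dishes numbered 2 the FDR was 0.424 at the same log2 fold change of 0.30.

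Col4a1 and Col4a2, the common pair of chains of most basement membranes, lie head to head on chromosome 8 (11198423 to 11312826 on the minus strand and 11312805 to 11449287 on the plus strand) and overlap by 22 bases at their starts. Col4a1 had 225, 301 and 190 CPM in the control and 226, 338 and 230 CPM in hPARG dishes, and Col4a2 had 161, 240 and 147 CPM against 183, 265 and 190 CPM. Dish 2 was the highest in both groups and the groups overlapped in both genes. Col4a2 had a log2 fold change of 0.22 ± 0.217 (SE) without a term and 0.23 ± 0.0623 with it, with edgeR FDR = 0.0977, and Col4a1 had 0.15 in either model, with FDR = 0.349 with the term. Without hPARG dish 2 the value of Col4a1 was -0.067. The ratio of Col4a2 to Col4a1 per kb of exon was 0.859 ± 0.0491 in control and 0.909 ± 0.0246 in hPARG dishes (SD, n = 3; exact permutation p = 0.2, adjusted 0.3).

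There were 2 other head-to-head pairs. Col4a6 lies 1308 bases from Col4a5 on the opposite strand and had 0.0707 CPM per kb against 62.6, an 885-fold difference in level. Col4a4 and Col4a3 on chromosome 1, separated by 71 bases, were both low at 0.0532 and 0.034 CPM per kb. Of these low genes, Col4a4 had 0.470 ± 0.258 CPM in the control and 0.660 ± 0.0986 CPM in hPARG dishes and Col4a6 0.510 ± 0.119 and 0.617 ± 0.0365 (SD, n = 3), with log2 standard errors of 0.476 and 0.338. Tail to tail on chromosome 1 and 24.6 kb apart lie Col3a1 and Col5a2, both of which were among the 5 genes that passed with the term.

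In the basement membrane zone, Col7a1 had 5.11, 3.74 and 3.86 CPM in the control and 4.63, 5.44 and 6.10 CPM in hPARG dishes. The groups overlapped through control dish 1, and the log2 fold change was 0.34 ± 0.187 (SE; edgeR FDR = 0.999) without a term and 0.35 with it (FDR = 0.400). Col18a1, whose C-terminal fragment is endostatin, had 3.11 ± 0.399 CPM in the control and 3.11 ± 0.205 CPM in hPARG dishes (SD, n = 3), and its log2 fold change of 0.005 ± 0.183 (SE) took a negative sign under several alternatives. Col15a1 was under the filter, with 4, 2 and 15 counts in control and 3, 0 and 0 in hPARG dishes.

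Among FACIT collagens, Col16a1 was the only abundant one, with 156, 181 and 139 CPM in the control and 171, 200 and 152 CPM in hPARG dishes. Each hPARG dish exceeded the control dish of its number, but the groups overlapped, and the log2 fold change was 0.14 ± 0.141 (SE) without a term and 0.13 ± 0.0666 with it (edgeR FDR = 0.364). Col12a1, which binds type I fibrils in tendon and other dense tissue, had 1.99, 3.31 and 1.41 CPM in the control and 1.01, 1.98 and 1.61 CPM in hPARG dishes. It had the lowest fitted value of the family, a log2 fold change of -0.54 ± 0.380 (SE; edgeR FDR = 0.999), with overlapping groups and FDR = 0.428 with the term. Col20a1 and Col9a3 were low, at 1.35 ± 0.390 and 1.18 ± 0.531 CPM in the control and 1.75 ± 0.435 and 1.45 ± 0.293 CPM in hPARG dishes (SD, n = 3).

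The type VI genes had a median log2 fold change of 0.30 without a term and 0.29 with it over 3 tested members. Col6a1 (chromosome 10, 76708792 to 76726168, minus strand) had 89.6, 94.6 and 78.1 CPM in the control and 101, 119 and 102 CPM in hPARG dishes, without overlap. Its log2 fold change was 0.30 ± 0.117 (SE) without a term (edgeR FDR = 0.999) and 0.29 ± 0.0662 with it, where the FDR of 0.0503 fell just outside the threshold. With the block the FDR was 0.0238, and without the dishes numbered 2 it was 0.489.

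Col6a2, 85.2 kb away on the same strand, had 82.7, 77.1 and 67.0 CPM in the control and 82.6, 88.9 and 77.3 CPM in hPARG dishes, with overlap and a log2 fold change of 0.13 ± 0.114 (SE). Col6a3, whose long chain joins the other two in the type VI molecule, stood much lower per kb, at 0.818 CPM per kb beside 22.2 for Col6a1. It had 7.84, 11.1 and 6.69 CPM in the control and 9.35, 14.9 and 8.85 CPM in hPARG dishes, and with the term its log2 fold change of 0.36 ± 0.111 (SE) had edgeR FDR = 0.148. The level of Col6a1 was 28.8 ± 4.72 times that of Col6a3 in control and 27.6 ± 5.16 times in hPARG dishes (SD, n = 3; exact permutation p = 0.6, adjusted 0.6).

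**Figure D5:**
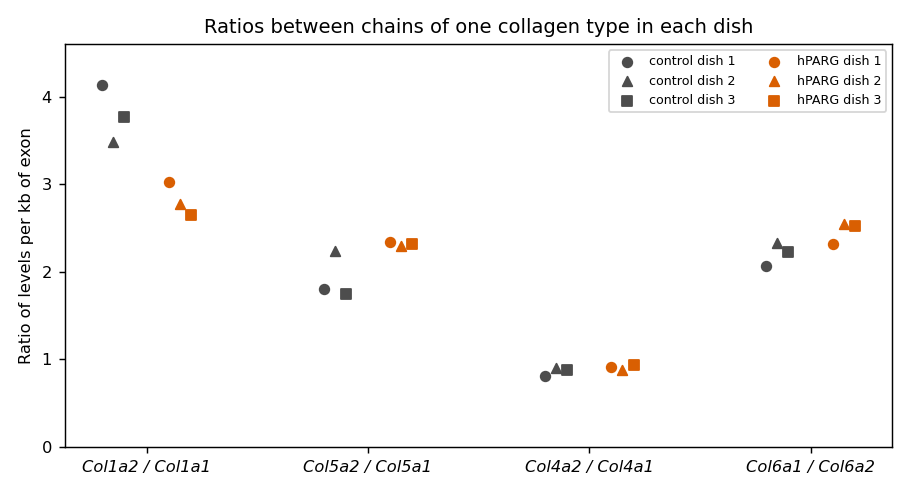
Ratio of the levels per kb of exon of paired chains of one collagen type in each dish (vertical axis, linear from 0), in grey for control and orange for hPARG dishes, with a circle, triangle and square for dishes 1, 2 and 3. The ratio of Col1a2 to Col1a1 lies between 3.48 and 4.13 in control and between 2.65 and 3.02 in hPARG dishes, and the ratio of Col5a2 to Col5a1 between 1.74 and 2.24 and between 2.29 and 2.34.

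The ratio of the type V chains, Col5a2 to Col5a1 per kb, was 1.80, 2.24 and 1.74 in control and 2.34, 2.29 and 2.32 in hPARG dishes. All hPARG dishes lay above all control dishes, control dish 2 being close to them, and the exact permutation test gave p = 0.1, or 0.3 adjusted. Col6a1 to Col6a2 was 2.20 ± 0.137 in control and 2.46 ± 0.124 in hPARG dishes (SD, n = 3; exact permutation p = 0.2, adjusted 0.3), and Col4a5 to Col4a1 was 1.80 ± 0.314 and 2.0 ± 0.328 (exact permutation p = 0.5, adjusted 0.6).

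Col8a1, a short-chain collagen of vessel walls and the cornea, was abundant at 183, 223 and 186 CPM in the control and 166, 208 and 193 CPM in hPARG dishes. The groups overlapped, and the log2 fold change of -0.07 ± 0.127 (SE; edgeR FDR = 0.999) gave it the only value below 0 among the 12 abundant genes, though the sign turned without control dish 2 and without hPARG dish 1. Col17a1, a transmembrane collagen of hemidesmosomes, had 1.21, 1.33 and 1.08 CPM in the control and 0.825, 1.36 and 0.78 CPM in hPARG dishes, a log2 fold change of -0.28 ± 0.310 (SE; edgeR FDR = 0.999). Both unclassed genes were at or under the floor in every dish, Col28a1 with 1, 2 and 1 counts in control and 0, 0 and 1 in hPARG dishes and Col26a1 with 0, 1 and 0 counts against 0, 0 and 3.

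Promoter sequence was available from RefSeq (GRCm38.p6) for 35 of the 44 members and 20 of the 24 tested ones, and was taken as the 250 bases before the start of transcription. Col1a1 and Col5a2 were among those without an entry. The windows of Col3a1 (chr1:45311288-45311537, plus strand) and Col5a1 (chr2:27886175-27886424, plus strand) are printed because these genes both passed with the term while their windows have little in common. They read 5′ to 3′ with the letters of the searched motifs, on either strand, in capitals.
Col3a1: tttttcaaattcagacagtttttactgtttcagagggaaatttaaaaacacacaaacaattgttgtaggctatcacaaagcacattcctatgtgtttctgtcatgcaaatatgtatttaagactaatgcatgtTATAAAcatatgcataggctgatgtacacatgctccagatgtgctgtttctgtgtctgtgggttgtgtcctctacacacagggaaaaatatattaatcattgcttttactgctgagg
Col5a1: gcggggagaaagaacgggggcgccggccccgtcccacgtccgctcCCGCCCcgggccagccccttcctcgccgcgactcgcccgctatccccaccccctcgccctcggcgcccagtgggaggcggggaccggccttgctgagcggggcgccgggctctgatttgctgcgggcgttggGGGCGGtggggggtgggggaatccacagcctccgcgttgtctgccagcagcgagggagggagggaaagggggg
The Col3a1 window held 35.2% G and C with 1 TATAAA, and the Col5a1 window 76.4% with 2 GGGCGG. Of the 20 tested members with a window, 13 held GGGCGG (32.7% of 32851 windows of the same length from all genes), 9 held CCAAT (33.8%), 3 held TATAAA (12.4%) and 1 held TGANTCA (6.7%). The motifs were searched on both strands, and a match describes the letters only. The 32851 windows were counted singly and without the filter on low counts. The 20 members had passed that filter, and each counted if any of its windows held the motif. The shares are therefore not like for like, and a difference between them cannot be read as a trait of collagen genes.

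Genes that modify, fold, export, process, crosslink, bind or accompany collagen formed a list of 51, of which 50 were found in the table by name and 36 passed the filter. By edgeR's test without a term 0 of the 36 passed the FDR, 2 had a p under 0.05 and were higher, and none was lower at that p. With the term 1 passed and 5 had a p under 0.05, all higher. In either direction, the shares of all tested genes were near these counts, with 3.95% at that p without a term. With the term they were 1.53% at the FDR and 14.9% at that p. Higher genes alone made up 1.42% of all tested genes at that p without a term. With the term, 0.547% were higher at the FDR and 7.22% at that p. Lower genes made up 2.54% at that p without a term and 7.72% with it. Beside the shares of higher genes the counts of the list were larger, but they rest on 1 to 5 genes. The median log2 fold change of the 36 was 0.09, beside 0.30 for the tested collagen genes. The gene that passed was Fn1, fibronectin, on whose network collagen is laid down, with 649, 1110 and 634 CPM in the control and 776, 1390 and 980 CPM in hPARG dishes, a log2 fold change of 0.41 ± 0.0856 (SE) and FDR = 0.0349 with the term. Its groups overlapped through control dish 2, and without a term the FDR was 0.999.

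Both genes of the list with a p under 0.05 without a term were hydroxylases. P3h3, a prolyl 3-hydroxylase, had 12.2 ± 0.479 CPM in the control and 15.3 ± 1.36 CPM in hPARG dishes (SD, n = 3), and its log2 fold change was 0.33. P4ha1, the catalytic subunit of prolyl 4-hydroxylase, had 104 ± 5.47 and 123 ± 6.39 CPM (SD, n = 3), and its log2 fold change was 0.23. Their edgeR FDR was 0.999 without the term and 0.143 and 0.111 with it. Sparc, a collagen-binding matrix protein, had 735 ± 46.3 CPM in the control and 877 ± 72.7 CPM in hPARG dishes (SD, n = 3; edgeR FDR = 0.999 without and 0.0894 with the term). The collagen export gene Sec23a had a log2 fold change of 0.25 (edgeR FDR = 0.127 with the term), and Fmod, the small proteoglycan fibromodulin, one of -0.51 at 0.675 CPM in the control and 0.471 CPM in hPARG dishes (edgeR FDR = 0.627 with the term).

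Most fitted values of the list lay above 0, and those of P4hb, Bmp1, Lox, Fmod and Tnxb lay below it. The list was not tested against the collagen genes. Of 3 genes picked after their values were seen, Serpinh1, the collagen chaperone HSP47, had 782 ± 69.0 CPM in the control and 818 ± 99.5 CPM in hPARG dishes, P4hb, the partner subunit of prolyl 4-hydroxylase, 866 ± 143 and 850 ± 150, and Lox, lysyl oxidase, 24.5 ± 5.38 and 23.3 ± 0.744 (SD, n = 3). The class medians of the log2 fold change were 0.11 for 13 hydroxylases, 0.08 for 5 chaperone and export genes, 0.05 for 3 propeptide-processing genes, 0.09 for 4 crosslinking genes, 0.06 for 5 receptors and 0.13 for 5 partners. Of the 8 fibroblast markers, which describe the same cells, Thy1 and Fn1 were higher and Pdgfra and Prrx1 lower in hPARG dishes with an edgeR FDR under 0.05 with the term. Of all tested genes, 1.53% passed with the term in either direction. Without a term none of the 8 passed, with FDR = 0.981 for Thy1, 0.999 for Fn1, 0.965 for Pdgfra and 0.976 for Prrx1. Thy1 had 153 ± 7.66 CPM in the control and 189 ± 14.2 CPM in hPARG dishes, Pdgfra 63.8 ± 5.59 and 48.4 ± 6.33, and Prrx1 223 ± 9.53 and 181 ± 12.6 (SD, n = 3). Their part in the collagen values was not tested.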

How the data were processed

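Poly(A) RNA of 6 dishes was sequenced as 150 bp paired-end reads. The labels name single wells, the methods dishes, and dish is used here. The authors mapped the reads to GRCm38 with Ensembl release 96 with CLC Genomics Workbench (version 12.0; mismatch cost 2, gap cost 3, fractions of 0.8 for both length and similarity, up to 10 hits). Gene counts, which the authors deposited unnormalized, were used for all tests. RPKM values, also deposited by the authors, were used only for the gene lengths they imply. Columns with the authors' own comparisons (fold changes and p-values) were not used. Strand use in counting is not given in the sources used here. Overlaps with other genes covered at most 6.073% of a member's exon bases (Col9a3 with Tcfl5).

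Exon lengths, coordinates and coding exons are from GENCODE release M21. Genes were filtered with filterByExpr (minimum count 10), normalized by TMM and tested by quasi-likelihood (glmQLFit, glmQLFTest) with edgeR version 4.0.16 under R 4.3.3, with Benjamini-Hochberg adjustment over all tested genes and group as the only factor. Standard errors were obtained from the log2 fold change and the root of F. Log2 values of single dishes used a pseudocount of 0.5 CPM. Scripts were tested on simulated data. Ratios of chains were compared by exact permutation (scipy 1.17.1). Alternatives were DESeq2 1.42.0, RLE factors, library size only, other filters, the replicate block, a term for the dishes numbered 2, these dishes left out, a correction for exon length and GC content, and each dish left out. The members, gene lists and ratios were chosen with earlier results of these data known. Full values are given for members with a p under 0.05 without or with the term, and in each class for the highest level and the smallest p. Other members are given by range and counts. Of the pathway list, those with an FDR under 0.05 and the 5 smallest p are named. Serpinh1, P4hb and Lox were named after their values were seen, and Bmp1 and Tnxb for a fitted value below 0.

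Same-numbered dishes, which share a number in the labels and nothing else that is stated, deviated together with r = 0.188, 0.742 and 0.341 for numbers 1 to 3 across 11509 genes. On the same scale hPARG dish 1 correlated with control dish 3 at 0.463. On edgeR's log CPM with a prior count of 2 the same-numbered values were 0.0963, 0.61 and 0.168. Precision is limited by 3 dishes per group.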

Additional observations from a re-analysis of the deposited data

How the results depend on the processing

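Collagen genes with an FDR under 0.05 numbered 0 in the model without a term, and 0 with DESeq2, RLE factors, library size only, either other filter, the correction for exon length and GC content, and each dish left out. They numbered 6 with the replicate block, 5 with the term for the dishes numbered 2, 2 with both of these dishes left out, and 6 with the replicate block and the correction together (2.84% of all tested genes). The number with a p under 0.05 was 6 without a term, and 6 with DESeq2, RLE factors, at least 10 counts in every dish, and the correction. It was 5 with library size only, 8 of 43 members without a filter, and 11 with the replicate block. With the term it was 8, with both dishes numbered 2 left out 7, and with the block and the correction 8. It ranged from 2 to 8 when single dishes were left out, with 3 without control dish 1, 2 without control dish 3 and 3 without hPARG dish 2. At that p, 3.95% of all tested genes stood without a term and 14.9% with it. The share was 17.9% with the block and 6.78% without the dishes numbered 2. For the other fits this share was not computed, so their counts cannot be set beside all tested genes. The median log2 fold change stayed above 0 in all alternatives run, from 0.216 to 0.315, and the difference in collagen share ranged from 0.0157 to 0.113 percentage points with single dishes left out, the lowest without hPARG dish 2. Levels depend on the length used: the mean ratio of Col1a2 to Col1a1 over the dishes, 3.3, became 6.7 with RPKM-implied lengths. Signs turned only near 0, for Col18a1 with library size only (-0.0221), the correction (-0.0366) and the correction with the block (-0.0322). With single dishes left out, the ranges that crossed 0 were -0.084 to 0.0942 for Col18a1 (below 0 without control dish 1 or hPARG dish 3), -0.1395 to 0.0321 for Col8a1 (above 0 without control dish 2 or hPARG dish 1), and -0.067 to 0.3511 for Col4a1 and -0.0101 to 0.3183 for Col1a2 (both below 0 without hPARG dish 2). The cause of these moves was not tested. Of 237 gene values under the alternatives other than single dishes left out, 215 kept direction and side of the threshold, 19 passed it and 3 changed sign. Depth limits the 20 members under the filter, and differences among them could be missed. The fit without a filter took in 43 members and called 0, and its values for the members under the filter are not given here.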
